A study of Mus musculus with 112 samples.

Results

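The comparison described here is that of calorie restriction (CR) with the control diet in the cerebral cortex of C3H/HeJ mice. It comprised 16 of 112 arrays, chosen by their labels: 8 CR arrays and 8 control arrays, 1 array a mouse. All 19938 genes with exactly 1 gene symbol on the platform were tested. C3H/HeJ is an inbred strain that carries the recessive retinal degeneration allele of Pde6b and a loss-of-function allele of Tlr4, the lipopolysaccharide receptor, so mice on both diets share them. CR mice ate a calorie restricted diet from 8 to 22 weeks of age, and control mice ate the control diet over the same weeks. All were males, individually housed from 6 weeks of age, and tissue was collected after an overnight fast. By the study's methods, food allotments differed between strains, and C3H/HeJ kept 1 control allotment and 1 lower CR allotment throughout. The other 96 arrays held the same design in 129S1/SvImJ, Balbc/J, C57BL6/J, CBA/J, DBA/2J and the hybrid B6C3F1/J, which has a C3H/HeJ parent. The samples are pieces of tissue, so fewer cells of a type and less RNA per cell cannot be told apart.

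Cortex holds excitatory and inhibitory neurons, glia and vessels, all with a high and constant need for fuel. CR lowers food intake without malnutrition. Known responses of tissues to it include shifts in the circadian clock, in which the transcription factor ARNTL drives genes such as Per2, Cry1 and Nr1d1 whose products repress it in turn, and in insulin and FoxO signalling, fuel use and protein folding in the endoplasmic reticulum (ER).

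Levels are log2 signal, so a difference of 1 is a doubling, and differences are CR minus control. The median standard error of a gene's difference in C3H/HeJ was 0.0681, and for 84.4% of genes the 95% confidence interval lay within a change of 20% either way. The tissue label was checked on defining markers. Tbr1, whose product marks excitatory neurons of the cortex, lay between 9.23 and 10.17 over the 16 C3H/HeJ arrays, and 2 arrays of other strains that were rich in cerebellar genes had 5.56 and 5.93. Gabra6, a receptor subunit of cerebellar granule cells, lay between 5.12 and 7.43 in C3H/HeJ, and the same 2 arrays had 12.17 and 12.32. All 16 arrays lay nearest to C3H/HeJ over 200 genes that separate the strains.

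CR replicates 5 to 8 stood apart from all other C3H/HeJ arrays. Scarna13, a small Cajal body RNA, lay between 9.79 and 10.37 in CR replicates 5 to 8, between 8.41 and 8.55 in CR replicates 1 to 4, and between 8.22 and 8.57 in the 8 control arrays. In the other strains 8 arrays, 2 CR and 6 control, had it at 9.8 to 10.4, and 88 arrays at 8.13 to 9.26. The 20 genes that followed Scarna13 most closely over the 96 arrays of other strains ran with it or against it. All 20 kept their direction between CR replicates 5 to 8 and 1 to 4. Cox6b1 and Uqcr11 of the respiratory chain were higher with it. Pym1 and Yipf2 ran against it, with differences of -0.33 and -0.32. Uqcr11 averaged 10.11 in CR replicates 5 to 8, 9.47 in CR replicates 1 to 4 and 9.41 in control arrays. No label names these 4 arrays as a batch, and what set them apart was not tested. CR replicate 7 also had the highest level of 12 cerebellar markers, 7.82 against at most 7.40 in the other C3H/HeJ arrays, and CR replicate 8 the lowest of 9 excitatory neuron markers, 9.42 against at least 9.84. Results are therefore given also without CR replicates 5 to 8, a choice made after seeing the data, which leaves 4 CR arrays.

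No gene passed the test for CR in C3H/HeJ. limma called 0 of 19938 genes (0%) at an adjusted p under 0.05, and the lowest adjusted p was 0.613. At an unadjusted p under 0.05 there were 527 genes, 2.64% of those tested, of which 303 (1.52%) were higher and 224 (1.12%) lower under CR. With no diet effect a share of about 0.05 of all genes would lie under that p, so this count is no excess. These values rest on a spread pooled over all strains. On the 16 C3H/HeJ arrays alone limma called 0 genes, with a lowest adjusted p of 0.215 and 702 under an unadjusted p of 0.05. Without 4 arrays of other strains rich in cerebellar genes limma called 0, with a lowest adjusted p of 0.0759. There 724 genes lay under an unadjusted p of 0.05. The methods' within-strain t-test, run on log2 values, also called 0 genes after Benjamini-Hochberg adjustment, with 713 under an unadjusted p of 0.05 and 114 under 0.01, of which 76 were higher and 38 lower. On linear signal, the scale the methods name, it called 0 after adjustment, with 720 under 0.05 and 116 under 0.01, of which 76 were higher and 40 lower. The median size of a difference was 0.0384, and 236 genes differed by over 0.2. Without CR replicates 5 to 8 the count was again 0, with 392 genes under an unadjusted p of 0.05. Within each of the other strains the same fit called 1 gene in 129S1/SvImJ, 17 in C57BL6/J, 20 in CBA/J and 0 in Balbc/J, DBA/2J and B6C3F1/J. The leading genes below are those of smallest unadjusted p in each direction, 14 higher and 14 lower, and none of them passed.

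The circadian clock held the leading gene. Nr1d1 encodes the nuclear receptor REV-ERB alpha, a repressor of Arntl. Its lowest, median and highest levels were 10.20, 10.68 and 11.06 in CR mice, against 10.60, 11.02 and 11.34 in control mice. The groups overlapped, with 3 CR arrays below every control array. The difference was -0.33 (SE 0.08, 95% confidence interval -0.48 to -0.18, limma adjusted p = 0.613). The 4 lowest levels in the CR group were those of CR replicates 5 to 8, and without these arrays the difference was -0.13. Leaving out CR replicate 1 or control replicate 6 brought the adjusted p to 0.035 and 0.0268, and over all alternatives it lay between 0.0268 and 1. In the other strains, whose arrays are separate from these, Nr1d1 fell by 0.26 (limma adjusted p = 7.81e-09) and was lower in 6 of 6. Its difference in C3H/HeJ minus that in the other strains was -0.07 (SE 0.08).

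Cry1, a partner of the PER proteins in repressing the clock, separated the diets fully. It lay at 7.88, 7.95 and 8.04 (lowest, median and highest) in CR mice, against 7.61, 7.68 and 7.83 in control mice. All 8 CR arrays were above every control array, which held for 3 genes of the 19938 (0.015%), while 0 genes had all 8 below. The difference was 0.24 (SE 0.07, limma adjusted p = 0.934), and 0.28 without CR replicates 5 to 8. With weights on arrays Cry1 was the 1 gene called, at a limma adjusted p of 0.0301, and over the alternatives its adjusted p lay between 0.0301 and 1. The other strains gave a mean difference of 0.08 (limma adjusted p = 0.0779), positive in 6 of 6. Per2, the other repressor of the pair, had 8.91, 9.25 and 9.33 in CR mice, against 8.50, 9.11 and 9.16 in control mice, and the groups overlapped. It differed by 0.20 (SE 0.08, limma adjusted p = 1.00), by 0.25 without CR replicates 5 to 8, and by 0.13 without control replicate 2. Per2 rose by 0.21 over the other strains (limma adjusted p = 1.48e-05), where 4 of 6 had a positive difference.

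The clock genes as a list did not move one way. Of 14 repressors and output genes, 6 were higher and 8 lower in C3H/HeJ, with a median difference of -0.00725, beside 0.000909 over all genes tested. Without CR replicates 5 to 8 the list stood at 13 higher and 1 lower, with a median of 0.1. The 5 clock activators measured were all lower, with a median of -0.0449. Arntl itself differed by -0.06, and fell by 0.09 over the other strains.

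Cry1 and Ifit3 are shown with the bases around their starts because, of the 5 motif-bearing genes among the leading 28, they are a clock gene and an interferon-induced gene whose differences stood without CR replicates 5 to 8. Each run is 250 bases before to 50 after the start, from RefSeq (GRCm38.p6), 5′ to 3′ on the gene's strand. Cry1 lies at chr10:85185005-85185304 on the minus strand, and the capitals mark an E-box, CACGTG, 60 bases before the start, together with a match to the sterol element CACCCCAC on the other strand that overlaps it.
Cry1: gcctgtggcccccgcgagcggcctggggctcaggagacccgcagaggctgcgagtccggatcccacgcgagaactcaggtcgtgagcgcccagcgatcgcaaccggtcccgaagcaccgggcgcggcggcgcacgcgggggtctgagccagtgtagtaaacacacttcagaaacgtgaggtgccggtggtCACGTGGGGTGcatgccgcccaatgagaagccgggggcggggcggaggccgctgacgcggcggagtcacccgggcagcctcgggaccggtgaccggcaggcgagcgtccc
Ifit3 lies at chr19:34583279-34583578 on the plus strand, and the capitals mark an exact match to GAAACTGA on the other strand, 120 bases before the start. These letters were searched as a short form of the interferon-stimulated response element. The full element was not searched, so the capitals do not give its place.
Ifit3: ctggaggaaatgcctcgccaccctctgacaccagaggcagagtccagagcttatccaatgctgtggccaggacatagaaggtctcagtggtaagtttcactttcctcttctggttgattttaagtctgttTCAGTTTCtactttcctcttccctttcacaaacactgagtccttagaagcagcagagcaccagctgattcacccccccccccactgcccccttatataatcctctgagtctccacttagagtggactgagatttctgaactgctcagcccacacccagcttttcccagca
The E-box was in 7.15% of 32851 promoter windows of the same length, CACCCCAC in 2.87% and GAAACTGA in 1.92%, both strands counted. Nubp2 held 2 E-boxes at 33 and 25 bases before its start, Eva1a an E-box 71 bases before and CACCCCAC 12 bases before, and Gpam CACCCCAC 180 bases before. Of the leading 28 genes, 20 had a window in the table, and the window of Nr1d1 held no exact match to any of the 6 motifs searched, which further included TGACGTCA, TGACGTGG and TTATGTAA. A match is a description of these letters and not a binding site.

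Among the other genes with higher levels under CR, Ifit3, an interferon-induced antiviral gene, lay at 7.63, 7.81 and 7.98 in CR mice, against 7.00, 7.46 and 7.80 in control mice. The groups overlapped between the lowest CR and the highest control arrays. The difference was 0.38 (SE 0.10, limma adjusted p = 0.934), and 0.43 without CR replicates 5 to 8. Ifit3 rose by 0.21 over the other strains (limma adjusted p = 0.00107), positive in 6 of 6. Its neighbour and near copy Ifit3b differed by 0.18 in C3H/HeJ, and probes can share signal between the pair. Ifit1 and Ifit2, also interferon-induced, went the other way in C3H/HeJ. Ifit1 had a median of 6.7 in CR mice, against 6.88 in control mice, and Ifit2 one of 6.64, against 6.76. H2-Ea, an alpha chain of MHC class II, had 6.12, 6.20 and 6.48 in CR mice, against 5.79, 5.94 and 6.11 in control mice, with no overlap. It differed by 0.30 (limma adjusted p = 0.9998), and by 0.28 without CR replicates 5 to 8, beside -0.04 over the other strains. H2-Ea was low in signal, since the median over all probe sets of a C3H/HeJ array was at least 7.169. The remaining gene without overlap was Ankrd23, an ankyrin repeat gene, at 7.22, 7.30 and 7.37 in CR mice, against 7.01, 7.18 and 7.21 in control mice, a difference of 0.15.

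Fmo1, a flavin-dependent monooxygenase that oxidises drugs and other small molecules, lay at 8.11, 8.23 and 8.70 in CR mice, against 7.78, 7.96 and 8.22 in control mice. The highest control array lay just under the CR median. The difference was 0.32 (limma adjusted p = 0.934), 0.24 without CR replicates 5 to 8, and Fmo1 rose by 0.14 over the other strains. Txnip, an inhibitor of thioredoxin and of glucose uptake, had 7.93, 8.35 and 8.67 in CR mice, against 7.86, 8.07 and 8.20 in control mice. It was higher by 0.24 with all arrays and by 0.05 without CR replicates 5 to 8, so most of its difference lay in those arrays. Txnip rose by 0.18 over the other strains.

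**Figure D1:**
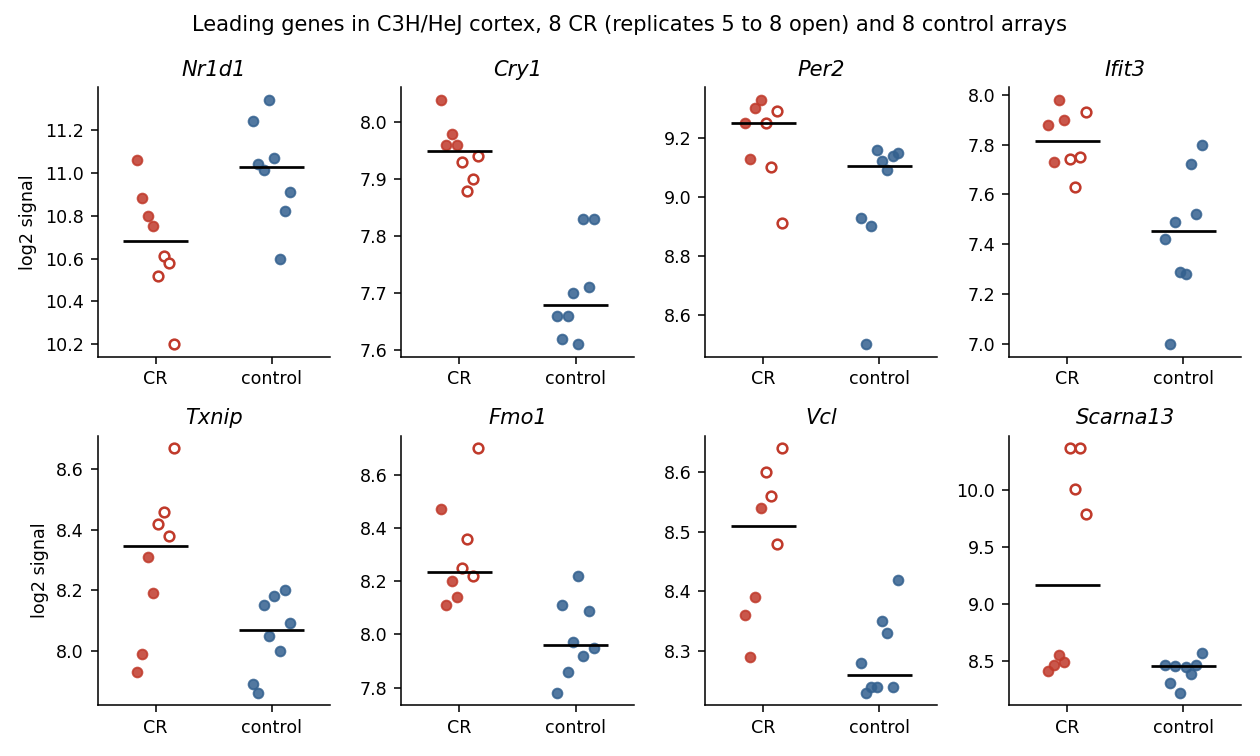
Log2 signal (vertical axis, a separate scale in each panel) of 8 genes in each C3H/HeJ array, CR on the left and control on the right, 1 point an array and a line at the group median. Open points are CR replicates 5 to 8, which hold the 4 lowest CR values of Nr1d1 and all Scarna13 values above 9. Cry1 is the panel in which the diets do not overlap.

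Several of the leading genes rested on the CR arrays that stood apart. Of the 28, 13 had a difference more than 1.5 times smaller without CR replicates 5 to 8, and all 28 kept their sign. Vcl, the focal adhesion protein vinculin, had 8.29, 8.51 and 8.64 in CR mice, against 8.23, 8.26 and 8.42 in control mice. It differed by 0.19, and by 0.10 without those arrays. Mrpl46, of the mitochondrial ribosome, differed by 0.22 and 0.12, and Ech1, an isomerase of fatty acid oxidation, by 0.21 and 0.03. Scarna13 itself differed by 0.89 with all arrays and by 0.06 without them.

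Other differences were of like size either way. Atp5e, a subunit of ATP synthase, was 0.21 higher with all arrays and 0.16 higher without CR replicates 5 to 8. With a score of the genes that follow Scarna13 as a covariate, Atp5e was 0.135 higher. It was among 7 of the 28 leading genes whose difference was then more than 1.5 times smaller. Gpam, which starts glycerolipid synthesis, was 0.16 higher and then 0.14 higher. Clec4a3, a lectin receptor of myeloid cells, was 0.22 higher and then 0.24 higher, and Pdgfrl, a gene related to the PDGF receptors, was 0.26 higher either way.

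Among the 14 leading genes with lower levels under CR, none of which passed, was Pcmt1. Pcmt1, a methyltransferase that repairs damaged aspartyl residues, had 10.48, 10.64 and 10.72 in CR mice, against 10.67, 10.75 and 10.95 in control mice, and the groups overlapped. It differed by -0.16, and by -0.14 without CR replicates 5 to 8. Eva1a, a regulator of autophagy, had 7.51, 7.69 and 7.73 in CR mice, against 7.68, 7.86 and 8.06 in control mice, and it differed by -0.18 and then by -0.21. Both genes held their size without those arrays.

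Snrpd2, a core protein of spliceosomal small nuclear ribonucleoproteins, differed by -0.16 with all arrays and by -0.07 without CR replicates 5 to 8. It fell by 0.10 over the other strains and was lower in 6 of 6. Ppp3cc, a catalytic subunit of calcineurin, differed by -0.17 and then by -0.11. Jph1, a junctophilin that ties the cell membrane to the ER, differed by -0.22 and then by -0.14. Nubp2, of cytosolic iron-sulfur cluster assembly, differed by -0.12 and then by -0.02.

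To ask how far C3H/HeJ shared the response of the other strains, genes were called on the 96 arrays of those strains and read in C3H/HeJ, which shares none of them. limma called 566 genes (2.84%), of which 292 (1.46%) rose and 274 (1.37%) fell. In C3H/HeJ 364 of the 566 (64.3%) differed in the same direction, 170 of those that rose and 194 of those that fell, beside 52% of all genes. Of the 566, 6.54% had the same direction at an unadjusted p under 0.05, beside 1.55% of all genes. The median difference in that direction was 0.02 in C3H/HeJ and 0.09 in the other strains, whose values chose the genes and so are drawn large. Each mouse was given the mean level of the genes that rose elsewhere minus the mean level of those that fell, relative to the control mean. As a difference between means, it is not on the scale of the median difference above. That score was -0.075, 0.071 and 0.13 (lowest, median and highest) in CR mice, against -0.133, -0.005 and 0.086 in control mice, and the groups overlapped. Without CR replicates 5 to 8 the share with the same direction was 55.3%.

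Read in the same way, from genes called in the strains left after taking it out, each of the other 6 strains had a share of 77.2% to 85%, a share of 13.4% to 29.7% at an unadjusted p under 0.05 and a median signed difference of 0.04 to 0.07. These sets of genes differ from strain to strain, and the difference between shares was not tested. The test of the difference itself, gene by gene, called 0 of 19938 genes (0%) between C3H/HeJ and the mean of the other strains, with a lowest limma adjusted p of 0.275 and 675 genes (3.39%) at an unadjusted p under 0.05.

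**Figure D2:**
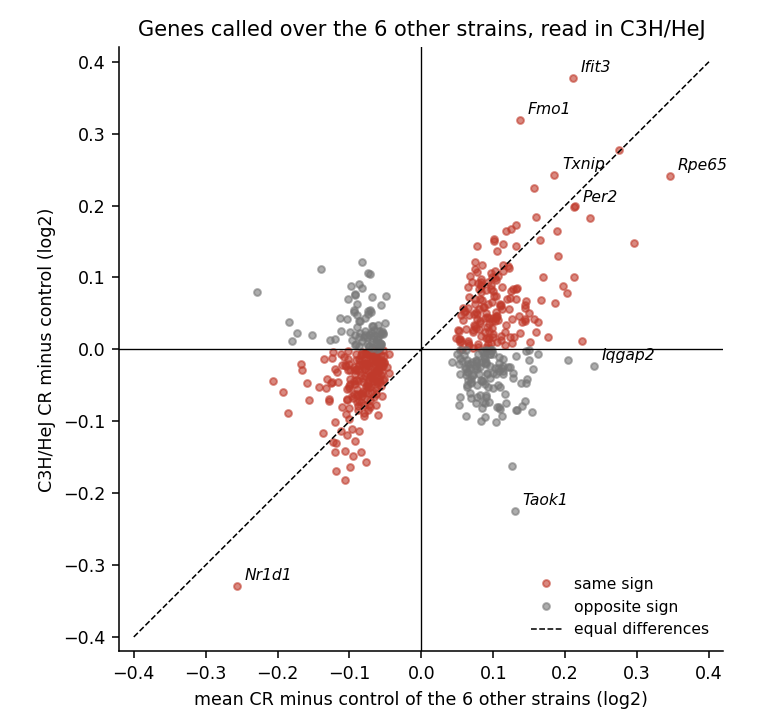
Each of the 566 points is a gene called over the 6 other strains, with its CR minus control difference in C3H/HeJ and in those strains (log2 units on both axes). Of these genes 364 have the same sign on both axes, and 508 have a smaller or an opposite difference in C3H/HeJ, beside values elsewhere that chose them.

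Genes that moved most in the other strains showed a range of values in C3H/HeJ. Rpe65, the retinoid isomerase of the visual cycle, rose by 0.35 there and had 5.87, 6.23 and 6.42 in C3H/HeJ CR mice, against 5.56, 6.04 and 6.28 in control mice. The C3H/HeJ groups overlapped, with a difference of 0.24. Cyp2c67, a cytochrome P450, differed by 0.15 in C3H/HeJ, beside 0.30 in the other strains. Without CR replicate 2 it differed by 0.0013, and without CR replicates 5 to 8 by 0.33. Its signal was low, at 3.61 to 4.96 in CR mice and 3.28 to 4.38 in control mice. The median of a C3H/HeJ array was at least 7.169. Map3k19, a kinase, differed by 0.20, beside 0.21, and by 0.09 without CR replicates 5 to 8. Etnppl, an astrocyte enzyme that breaks down phosphoethanolamine, differed by 0.28, beside 0.27, but by -0.04 without CR replicates 5 to 8.

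Others were near 0 in C3H/HeJ. Iqgap2, a cytoskeletal scaffold, had a difference of -0.02, beside 0.24 in the other strains, and Camk1g, a calcium and calmodulin dependent kinase, had 0.01, beside 0.22. Fabp7, a fatty acid binding protein of glia, fell by 0.23 in the other strains. It had 10.41, 10.45 and 11.39 in C3H/HeJ CR mice, against 10.17, 10.57 and 11.08 in control mice, a difference of 0.08 with wide overlap. Some genes of synapses and of vessel walls that were among those that fell most elsewhere also stood close to 0. Grin2c, an NMDA receptor subunit, had -0.06 in C3H/HeJ and -0.19 elsewhere. Gabrd, the delta subunit of extrasynaptic GABA receptors, had 0.01 and -0.18, and Mcam, an adhesion molecule of pericytes and endothelium, 0.04 and -0.18. The means elsewhere include control replicate 6 of C57BL6/J and control replicate 8 of B6C3F1/J, whose cerebellar markers averaged 11.14 and 11.29. Over the other strains the cerebellar markers had a median difference of -0.107. Without 4 arrays rich in cerebellar genes limma called 941 genes over the other strains (358 higher, 583 lower), in place of 566. The part of such arrays in the differences of the single genes named here was not tested.

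The genes that differed most between C3H/HeJ and the other strains went opposite ways, though none passed the test. Pip4p1, a phosphatase of phosphatidylinositol bisphosphate, had 9.11, 9.16 and 9.22 in CR mice, against 8.99, 9.02 and 9.17 in control mice, and the ranges overlapped only at their edges. The difference was 0.11 in C3H/HeJ, and Pip4p1 fell by 0.07 in the other strains, lower in 6 of 6 (difference between them 0.18, SE 0.04, limma adjusted p = 0.275). It was 0.10 without CR replicates 5 to 8. Taok1, a kinase of the MAPK cascade and of microtubules, had 9.88, 10.10 and 10.38 in CR mice, against 10.07, 10.36 and 10.62 in control mice, with overlap. It differed by -0.23 in C3H/HeJ, and rose by 0.13 in the other strains, higher in 6 of 6. Without CR replicates 5 to 8 the C3H/HeJ value was -0.13. For Scarna13 the difference between them was 1.11 (SE 0.25, limma adjusted p = 0.275), which was 0.29 without CR replicates 5 to 8.

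**Figure D3:**
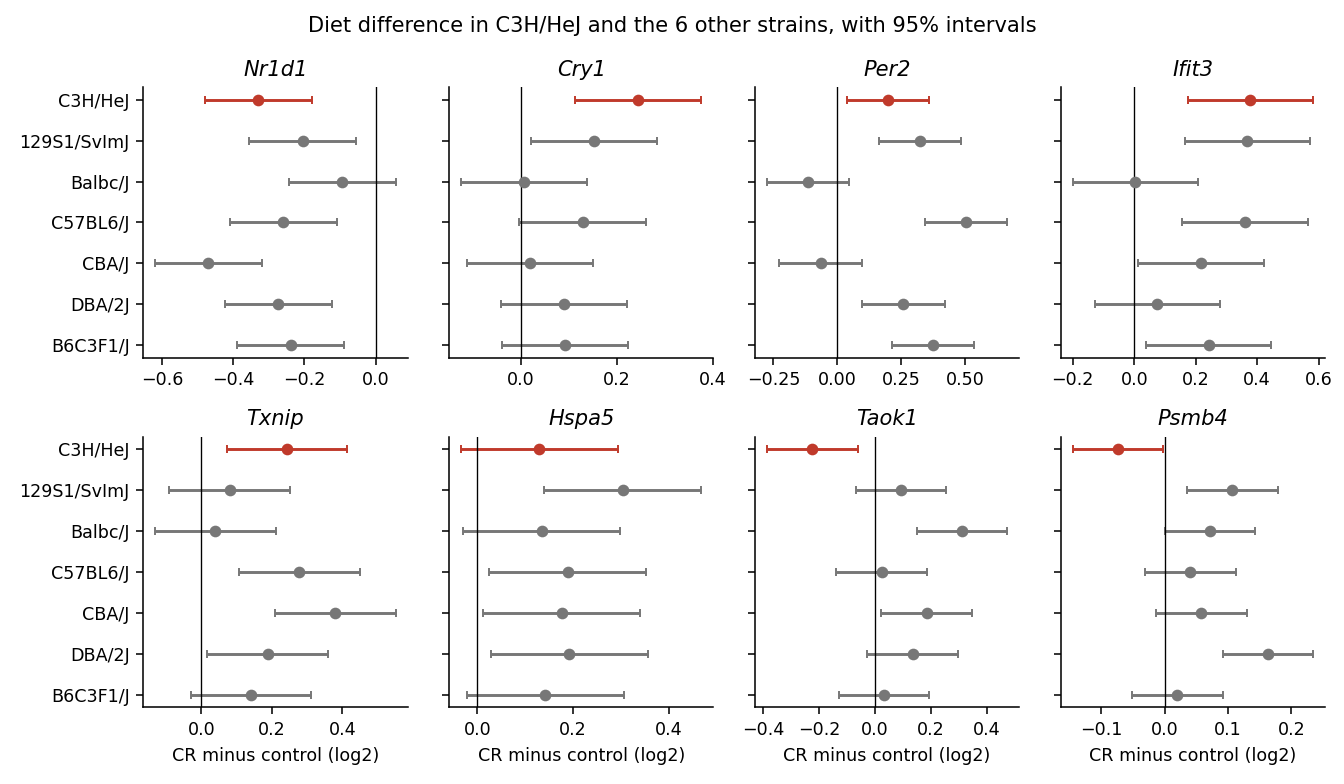
CR minus control difference (log2 units, horizontal axis) of 8 genes in 7 strains, C3H/HeJ at the top of each panel, with 95% confidence intervals. Nr1d1 lies below 0 in all 7 strains, while Taok1 and Psmb4 lie below 0 in C3H/HeJ and above 0 in the other 6.

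The proteasome degrades ubiquitin-tagged proteins, and more of its subunits were lower than higher in C3H/HeJ. Of 26 subunits 7 were higher, beside 50.6% of all genes, and 19 lower. The median was -0.0176, beside 0.022 in the other strains. There limma called 4 higher and 0 lower, beside 1.46% and 1.37% of all genes. In C3H/HeJ, at an unadjusted p under 0.05, 0 were higher and 3 lower, beside 1.52% and 1.12% of all genes. limma called 0 there. Psmb4, a subunit of the catalytic core, had 10.80, 10.93 and 11.00 in CR mice, against 10.88, 10.99 and 11.09 in control mice, and the groups overlapped. It differed by -0.07 in C3H/HeJ, and rose by 0.08 in the other strains. Psma6, of the outer ring of the core, differed by -0.09, and rose by 0.06 elsewhere, and Psmd1, of the regulatory particle, by -0.08, and rose by 0.05 elsewhere.

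In the test of C3H/HeJ minus the other strains, 18 of the 26 were below 0, beside 49% of all genes, and 5 were lower at an unadjusted p under 0.05, beside 1.66% of all genes, with 0 called. Of the 566 genes called in the other strains, 8 had the opposite direction in C3H/HeJ at an unadjusted p under 0.05. Psmb4, Psma6 and Psmd1 were among them. At that p, 37 of the 566 had the same direction, and 2.64% of all genes lay under it in either direction. No result about the subunits is drawn from this count. Without CR replicates 5 to 8 the subunits stood at 13 higher and 13 lower, and Psmb4 at -0.02, Psma6 at -0.11 and Psmd1 at -0.12.

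Most ribosomal proteins were higher under CR, without passing the test. Of 27 measured, 20 were higher and 7 lower, with a median of 0.026, beside -0.00523 in the other strains, and 24 were higher without CR replicates 5 to 8. Rps19, of the small subunit, had 8.37, 8.72 and 8.88 in CR mice, against 8.35, 8.46 and 8.73 in control mice, and the groups overlapped over most of their range. It differed by 0.18, Rpl5, which binds 5S ribosomal RNA, by 0.17, and the stalk protein Rplp2 by 0.15, the 3 members under an unadjusted p of 0.05, beside 1.52% of all genes that were higher at it. They differed by 0.25, 0.09 and 0.13 without CR replicates 5 to 8. limma called 0, and many ribosomal proteins have near-identical pseudogenes with which probes can share signal.

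Of 20 ER chaperones and folding enzymes 11 rose in the other strains, beside 1.46% of all genes. In C3H/HeJ 15 of the 20 were higher, beside 50.6% of all genes, and 5 lower, with a median of 0.0273, beside 0.0627 in the other strains. None reached an unadjusted p of 0.05. Hspa5, the chaperone BiP, had 10.78, 10.95 and 11.18 in CR mice, against 10.61, 10.78 and 11.05 in control mice. The ranges overlapped, and the difference was 0.13 (95% confidence interval -0.03 to 0.29), beside 0.19 elsewhere, and 0.04 without CR replicates 5 to 8. The regulators of the unfolded protein response had 9 of 20 higher, with a median of -0.0183, which was 0.0229 with 12 of 20 higher without CR replicates 5 to 8 and 0.0119 without CR replicates 7 and 8. Ddit3, the stress transcription factor CHOP, differed by 0.11.

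Lists of lipid and fuel metabolism held 0 called genes. Sterol synthesis and uptake had 14 of 20 higher, with a median of 0.0256, and 19 of 20 with a median of 0.08 without CR replicates 5 to 8. Nsdhl and Pmvk, enzymes of cholesterol synthesis, differed by 0.15 and 0.10, and by 0.09 and 0.11 without those arrays. Fatty acid synthesis had 12 of 18 higher with a median of 0.0252 (0.0122 without those arrays), and ketone use and fatty acid oxidation 10 of 16 with 0.0224. Oxidative phosphorylation subunits had 12 of 26 higher with -0.00192, and glycolytic enzymes 8 of 18 with -0.00166. Glycolytic enzymes stood at 16 of 18 higher, with a median of 0.0341, without CR replicates 5 to 8.

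Insulin, IGF and FoxO signalling had 8 of 19 higher with a median of -0.0148. Irs2, an adaptor of the insulin receptor that FoxO factors induce, had 8.68, 8.77 and 8.84 in CR mice, against 8.50, 8.62 and 8.76 in control mice, with overlap. It differed by 0.14 in C3H/HeJ, and rose by 0.10 elsewhere. Irs1, of the same list, went the other way, with a mean of 7.89 in CR mice, against 8.00 in control mice. Among antioxidant genes, Slc7a11, the cystine transporter, had 9.91, 10.10 and 10.34 in CR mice, against 9.58, 9.89 and 10.06 in control mice. That was a difference of 0.22, and Slc7a11 rose by 0.16 elsewhere. Catalase (Cat) differed by 0.14, and by 0.04 without CR replicates 5 to 8.

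Glucocorticoids are stress hormones that CR is known to raise. The list of their 2 receptors and genes they induce had 7 of 19 higher and 12 lower in C3H/HeJ, with a median of -0.0284, beside 0.0184 in the other strains. In the difference between the strains 16 of the 19 were below 0, beside 49% of all genes. At an unadjusted p under 0.05, 3 were lower, beside 1.66% of all genes, and 1 was higher, with 0 called. Sgk1, a kinase that these hormones induce, differed by -0.19, and by -0.42 without CR replicates 5 to 8, while Angptl4, an inhibitor of lipoprotein lipase, differed by 0.17. Immediate early genes, which follow neuronal activity, had 12 of 21 higher and a median of 0.0244, and without CR replicates 5 to 8 they stood at 19 of 21 and 0.211. Neuropeptides and granins had 10 of 21 higher, with a median of -0.00638, beside 0.0773 in the other strains, and 14 of 21 with 0.0427 without CR replicates 5 to 8. Interferon-induced genes, a list that includes Ifit3, were mixed, with 12 of 21 higher and a median of 0.0186. They stood at 15 of 21 and 0.0427 without CR replicates 5 to 8.

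**Figure D4:**
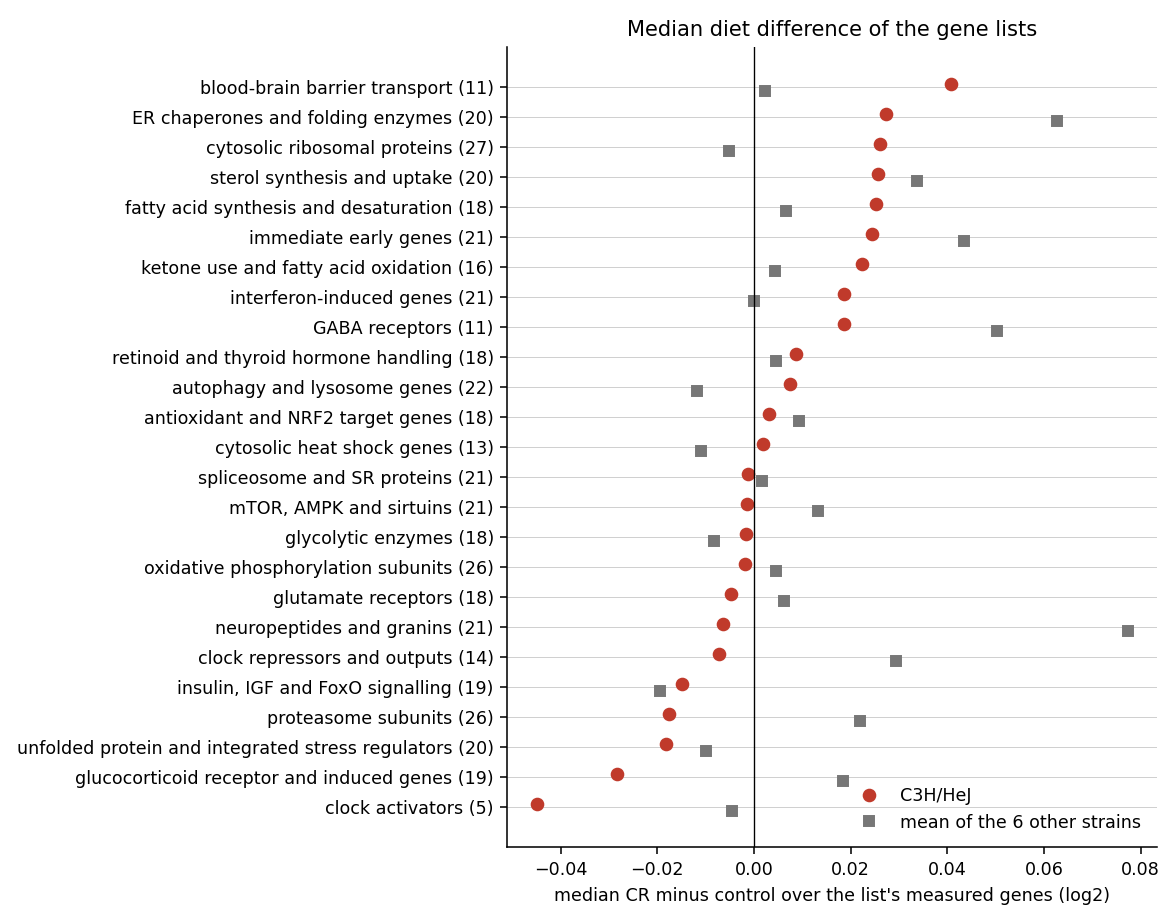
Median CR minus control difference (log2 units, horizontal axis) of 25 pathway lists in C3H/HeJ and over the 6 other strains. In C3H/HeJ the medians lie between -0.0449 for clock activators and 0.0408 for blood-brain barrier transport.

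Levels of some region markers ranged widely among arrays of 1 diet. The 8 striatal markers, among them the dopamine receptor Drd1, were all higher under CR, with a median difference of 0.257, and their mean level was 9.55, 10.7 and 11.3 in CR mice, against 9.78, 10.1 and 11.0 in control mice. The groups overlapped, and without CR replicates 5 to 8 all 8 were lower, with a median of -0.123. Excitatory neuron markers had 7 of 9 lower with a median of -0.126, and 4 of 9 lower without those arrays. Choroid plexus markers had 9 of 10 lower, with Ttr, the thyroxine carrier, at -0.81 (95% confidence interval -2.19 to 0.56).

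Most vessel markers were higher under CR, without passing the test. Of 8 endothelial markers 7 were higher, with a median of 0.0617, beside -0.0206 in the other strains, and 8 of 9 mural cell markers were higher with a median of 0.0382. The counts were 7 of 8 with 0.0591 and 6 of 9 with 0.0085 without CR replicates 5 to 8. Cldn5, a tight junction protein of the blood-brain barrier, had 9.42, 9.50 and 9.70 in CR mice, against 9.14, 9.40 and 9.61 in control mice, with overlap. It differed by 0.18, and Kdr, a receptor for VEGF, by 0.15, and without CR replicates 5 to 8 they differed by 0.25 and 0.17. Blood-brain barrier transport genes, which include Cldn5, had 8 of 11 higher with a median of 0.0408. The part of region and cell markers in the gene differences was not tested.

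**Figure D5:**
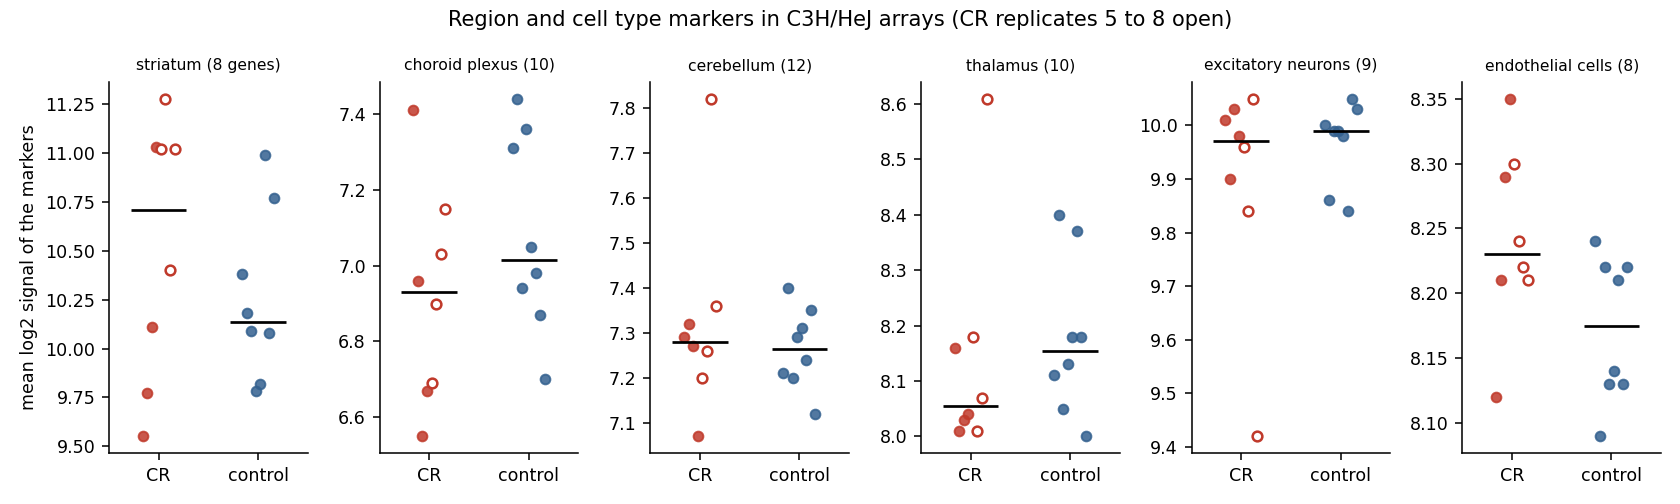
Mean log2 signal of 6 marker lists (vertical axis, a separate scale in each panel) in each C3H/HeJ array, CR on the left and control on the right, with CR replicates 5 to 8 open and a line at the group median. The diets overlap in every panel, and striatal markers span 9.55 to 11.3 among CR arrays.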

How the data were processed

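Total RNA from the cortex of 112 male mice was biotin-labelled for Affymetrix Mouse Gene ST arrays, 1 a mouse. The deposited log2 values were made by the authors with Affymetrix Expression Console and gene-level RMA-Sketch (background correction, quantile normalization, probe set summary). Their versions were not stated in any source used here. RMA hides a shift common to a whole array. Of 35556 probe sets, 21789 had 1 symbol, 1621 several and 12146 none. Where a gene had several probe sets the one of highest mean signal stood for it, giving 19938 genes, with no filter on low signal.

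One limma 3.58.1 model (R 4.3.3, lmFit and eBayes, two-sided) held a mean for each of 14 strain and diet groups. P-values were adjusted over all 19938 genes by Benjamini-Hochberg, and 0.05 was the threshold. Contrasts were CR minus control in C3H/HeJ, its mean over the 6 other strains, and the difference of these. Members, lists, motifs and tests were chosen with earlier results of these data known. Named genes were the 14 of smallest p each way, 3 each way for the difference between strains, the 8 largest each way called in the other strains, and up to 3 a list. Genes outside this rule, Ankrd23 among them, were chosen after their values were seen. The model was tested on simulated data. The labels name the arrays as biological replicates, and their number limits the precision. Plots used Python 3.11.15, numpy 2.4.6, pandas 2.3.3 and matplotlib 3.10.9. Alternatives were other normalizations, centring, probe set choices, eBayes settings, array weights, a replicate block, a quality covariate, a t-test within the strain, and leaving out arrays.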

Additional observations from a re-analysis of the deposited data

Results flagged for a closer look

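Of 190 groups of 8 values, 10 had a highest or lowest array set off from the rest by Dixon's criterion at 95% confidence, and chance gives about 1 in 20. Among CR arrays, Cyp2c67 was 4.96 in replicate 2, with the nearest other at 4.1, and H2-Ea was 6.48 in replicate 8, with the nearest at 6.27. Among control arrays, Ech1 was 8.9 in replicate 4 (nearest 9.2), Nubp2 was 9.26 in replicate 4 (nearest 9.49) and Per2 was 8.5 in replicate 2 (nearest 8.9).

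Marker levels set single CR arrays apart. Gabra6 was 7.43 in CR replicate 7 (nearest 5.77), where the cerebellar markers averaged 7.82 (nearest 7.36). In CR replicate 8 the excitatory neuron markers averaged 9.42 (nearest 9.84) and the thalamic markers 8.61 (nearest 8.18). The oligodendrocyte markers averaged 8.99 in CR replicate 2 (nearest 9.46). With CR replicates 7 and 8 both left out, limma called 0 genes in C3H/HeJ, with 382 at an unadjusted p under 0.05.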

How the results depend on the processing

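limma called 0 genes for CR in C3H/HeJ with 2 exceptions among the settings that kept all its arrays: array weights called 1 (Cry1) and the replicate block called 1 (Nr1d1, adjusted p = 0.0453). Leaving out each C3H/HeJ array in turn gave 0 to 1 called (Nr1d1 without CR replicate 1 or control replicate 6), 376 (without CR replicate 8) to 683 (without CR replicate 2) genes at an unadjusted p under 0.05, and a same-direction share of 57.3 (without control replicate 1) to 69.3 percent (without CR replicate 1). The difference from the other strains had 0 to 0 called and 512 to 794 at an unadjusted p under 0.05, and the other strains 542 to 571 called. Limiting the genes to those above the median gene, which tests fewer, gave 319 in C3H/HeJ and 434 for the difference. For the other strains array weights called 1377 (573 higher, 804 lower) and leaving out 4 arrays rich in cerebellar genes 941 (358 higher, 583 lower). Requantiling split their calls 434 to 304, and centring each array on its median 197 to 259. Of 4 alternatives chosen after seeing the data, the t-test on linear signal changed no call. Under the others the share was 58.4 percent without CR replicates 7 and 8, 55.3 without CR replicates 5 to 8, and 59.9 with the score of the genes that follow Scarna13 as a covariate. The covariate gave 0.29 for Scarna13, -0.29 for Nr1d1 and 0.28 for Cry1.

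Differences near 0 changed sign. Iqgap2 was 0.00147 with array weights, 0.00859 with the quality covariate, 0.00165 without CR replicates 7 and 8, and -0.0644 to 0.0397 with single arrays left out. Gabrd was -0.00358 with the quality covariate, -0.00615 without CR replicates 5 to 8 and -0.0308 to 0.0476 with single arrays left out, and Ablim3 was -0.00232 and -0.00947 to 0.059. Without CR replicates 5 to 8, Etnppl was -0.0355, Mcam -0.0211, Grm2 0.0237, Slc17a7 0.0778 and Drd1 -0.0262. With the Scarna13 covariate, Camk1g was -0.0068, Grin2c 0.00868 and Gng13 0.00858. With single arrays left out Camk1g was -0.0374 to 0.0492 and Fabp7 -0.0301 (without CR replicate 1) to 0.158. The cause was not tested. Of 182 counts and shares 167 kept within their limits, as did 1190 of 1199 list medians.

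C3H/HeJ replicate numbers are shared between diets, but same-numbered arrays correlated at -0.0436 to 0.253, with 6 of 8 over 0.1 and 4 of 8 closest to their own number, so the numbers were not taken as pairs. The replicate block called 636 genes (311 higher, 325 lower) in the other strains and changed no other call.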

Other observations

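Probe sets with no symbol or several were tested apart in the C3H/HeJ contrast. limma called 0 of 13767, with 404 at an unadjusted p under 0.05 and a lowest adjusted p of 0.524.

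Oligodendrocyte precursor markers had 6 of 7 higher in C3H/HeJ with a median of 0.0183, but 3 of 7 with a median of -0.0499 without CR replicates 5 to 8. Gpr17, a receptor of differentiating precursors, differed by 0.17, and by 0.08 without those arrays. Microglial markers had 7 of 9 higher with a median of 0.0257, and astrocyte markers 8 of 10 with a median of 0.0198 (5 of 10 without CR replicates 5 to 8), among which the gap junction protein Gja1 differed by 0.09 and rose by 0.10 in the other strains. Lum, a proteoglycan of meningeal fibroblasts, differed by 0.22, and by 0.10 without CR replicates 5 to 8. None passed the test in C3H/HeJ.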
